A study of Mus musculus with 8 samples.

Results

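RNA of lipoprotein lipase and of the proteins that carry fatty acids into brown adipocytes was measured in the brown adipose tissue (BAT) of mice with LV pressure overload. The genes were Lpl, Gpihbp1, Lmf1, Cd36, Vldlr, Fabp3, Fabp4, Fabp5, Slc27a1 and Slc27a4, 10 of the 21154 genes that had a symbol and a probe on the array. They were chosen by function: every non-control probe whose RefSeq accession belonged to one of these symbols was taken, which gave 14 probes on 14 spots. All 14 were well above background on every array read here, and none of their spots was saturated or an outlier.

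The mice were male C57BL/6NCrSlc, housed at 23 °C on normal chow. At 11 weeks of age they underwent transverse aortic constriction (TAC), which narrows the aorta and loads the left ventricle, or sham surgery (Sham), and BAT was taken at 13 weeks. The labels disagree on the interval, with 2 weeks after surgery in most fields and 4 weeks in one. Total RNA (100 ng, labelled with Cy3) was hybridised to 1-colour Agilent arrays, 4 per group; surgery was the only difference between the groups that the labels name.

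Brown fat burns fatty acids to make heat and draws much of its fuel from triglyceride carried in blood lipoproteins. LPL, folded in the adipocyte with the help of LMF1 and moved across the capillary wall by GPIHBP1, releases fatty acids from these particles. The acids enter the cell through CD36 and the FATP transporters, VLDLR docks triglyceride-rich particles, and the FABP proteins carry fatty acids through the cytosol.

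On all 7 scanner arrays 12 of 12 brown adipocyte markers were above background. The same held for 12 of 12 endothelial and 12 of 12 skeletal muscle markers, so this count does not by itself identify the tissue. The scanner values covered Sham replicates 2 to 4 and TAC replicates 1 to 4, and the deposited table added Sham replicate 1. TAC replicate 1 stood apart: its score on the leading principal component (39.3% of all variance) was 89.6, against -8.58 to 3.58 for the other TAC arrays and -32.6 to -20.3 for Sham. Its macrophage markers summed to 81.1 times the array's 75th percentile, against 39.8 to 50.5 elsewhere, and its brown adipocyte markers to 3210, against 4100 to 5010. Taken singly, 11 of the 12 brown adipocyte markers were lower after TAC and 1 higher, with a median log2 fold change of -0.28. At an unadjusted p under 0.05 (limma), 3 were lower and 0 higher, beside 8.43% and 4.38% of all probes tested. Their mean log2 deviation from Sham was -1.34, -0.309, -0.1 and -0.575 on TAC replicates 1 to 4, against -0.159 to 0.199 on Sham. Their part in the differences of the members was not tested. Values without TAC replicate 1 are given for the members and for named genes where it moved them most. All arrays lay on 1 slide, with Sham in one row and TAC in the other, so place on the slide and surgery cannot be told apart.

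Values are log2 intensities relative to the 75th percentile of the array, so 0 is the 75th percentile and a difference of 1 is a doubling; intensities of different probes are not compared. Where a gene had several probes, the brightest represents it. Across the array, 0% of the 33364 probes tested passed an adjusted p of 0.05 (limma), and 0 of the 14 member probes did. At an unadjusted p under 0.05, 4.38% of probes were higher and 8.43% lower after TAC. Every TAC array lay above every Sham array for 5.59% of probes, and below for 10.4%.

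Among the 10 genes, 4 were higher on average after TAC and 6 lower. Their median was -0.06 on the log2 scale, against -0.03 over all probes tested. At an unadjusted p under 0.05, 1 was higher (Fabp3) and 1 was lower (Fabp5), beside the 4.38% and 8.43% of all probes. In Fabp5 alone did the groups not overlap, with TAC below Sham. Over all probes tested, 10.4% lay below in this way and 5.59% above. The median size of change without regard to sign was 0.0989 for these brightest probes and 0.133 for all 14 member probes. Over all probes tested, dim ones included, it was 0.152. Adjusted p of the members ran from 0.297 to 0.845.

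**Figure D1:**
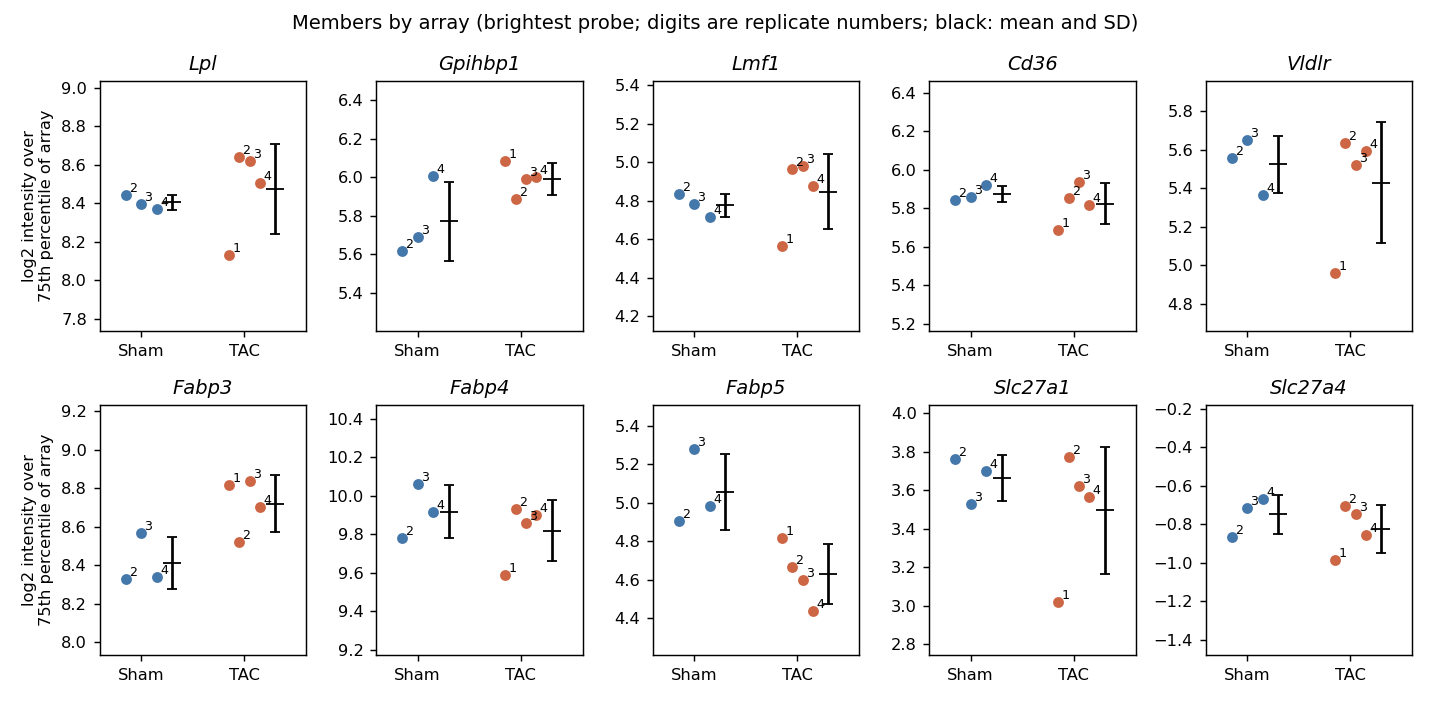
Log2 intensity over the array's 75th percentile (vertical axis) in Sham (blue, n = 3) and TAC (orange, n = 4) for the brightest probe of each gene; digits are replicate numbers, black bars show mean ± SD, and every panel spans the same range. Fabp5 is the panel in which all TAC points lie below all Sham points, and TAC replicate 1 is the lowest point in 7 panels.

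The lipase itself differed little on average. Lpl, which hydrolyses lipoprotein triglyceride, read 8.44, 8.39 and 8.37 in Sham replicates 2, 3 and 4, and 8.13, 8.64, 8.62 and 8.50 in TAC replicates 1 to 4. TAC replicate 1 fell below all Sham arrays while the other 3 TAC arrays lay above them, so the groups overlapped. The log2 fold change was 0.07 (SE 0.137, 95% interval -0.252 to 0.392, limma adjusted p = 0.845). Without TAC replicate 1 it was 0.18 (adjusted p = 0.38), and Sham replicate 1, at 0.14 above the other Sham arrays in the table, overlapped the TAC arrays. The other Lpl probe moved the same way, by 0.13 (SE 0.15).

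Gpihbp1, the capillary endothelial protein that binds LPL, read 5.62, 5.69 and 6.01 in Sham and 6.09, 5.89, 5.99 and 6.00 in TAC. The TAC arrays lay close together, above Sham replicates 2 and 3 and around Sham replicate 4. The log2 fold change of Gpihbp1 was 0.22 (SE 0.116, 95% interval -0.0538 to 0.495, limma adjusted p = 0.467). With Sham replicate 1 included it was 0.28 (adjusted p = 0.345), and without TAC replicate 1 it was 0.19 (adjusted p = 0.541). The summed endothelial markers were at 132 to 153 times the 75th percentile in Sham and 136 to 149 in TAC, with 12 of 12 above background. Taken singly, 10 of these markers were higher and 2 lower after TAC, with a median of 0.06 on the log2 scale, and 2 were higher at an unadjusted p under 0.05, Emcn by 0.39 and Tie1 by 0.34. Their part in the Gpihbp1 difference was not tested. Fewer cells of a type and less RNA per cell cannot be told apart in whole tissue.

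Lmf1, which is needed for LPL to leave the endoplasmic reticulum in active form, read 4.83, 4.78 and 4.71 in Sham and 4.56, 4.97, 4.98 and 4.88 in TAC. The order of the TAC arrays was like that of Lpl, with replicate 1 lowest of all and the others above every Sham array. The log2 fold change was 0.07 (SE 0.122, 95% interval -0.217 to 0.357, adjusted p = 0.824), and 0.17 without TAC replicate 1 (adjusted p = 0.422). Its 2 probes disagreed in direction. The dimmer one read 0.28, 0.22 and 0.21 in Sham and -0.01, 0.12, 0.16 and 0.12 in TAC, a log2 fold change of -0.14 (SE 0.0796, adjusted p = 0.5). These 7 arrays did not overlap, but Sham replicate 1 lay 0.32 below the other Sham arrays in the table, under every TAC array.

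The receptors and transporters at the cell surface showed small differences that rested on TAC replicate 1. Cd36, the fatty acid translocase, read 5.84, 5.86 and 5.92 in Sham and 5.68, 5.86, 5.94 and 5.82 in TAC. The groups overlapped, and the interval was the tightest of the 10, with a log2 fold change of -0.05 (SE 0.0884, 95% interval -0.259 to 0.159, adjusted p = 0.828). Without TAC replicate 1 the change was -0.0037.

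Vldlr, a receptor that binds triglyceride-rich lipoproteins, read 5.56, 5.65 and 5.36 in Sham and 4.96, 5.64, 5.52 and 5.59 in TAC. TAC replicates 2 to 4 lay within the Sham range and replicate 1 well under it. The log2 fold change was -0.10 (SE 0.181, 95% interval -0.525 to 0.329, adjusted p = 0.836), and it turned to 0.06 without TAC replicate 1. The other probe behaved alike, at 3.02, 2.80 and 2.71 in Sham and 2.18, 2.82, 2.83 and 2.91 in TAC (log2 fold change -0.16, adjusted p = 0.744).

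Slc27a1, which encodes the transporter and acyl-CoA synthetase FATP1, read 3.76, 3.53 and 3.70 in Sham and 3.02, 3.77, 3.62 and 3.57 in TAC. Once more 3 TAC arrays lay in or next to the Sham range and replicate 1 lay below it. The log2 fold change was -0.17 (SE 0.184, 95% interval -0.602 to 0.267, adjusted p = 0.719), and -0.0088 without TAC replicate 1. Slc27a4, encoding the related FATP4, read -0.86, -0.71 and -0.67 in Sham and -0.99, -0.71, -0.75 and -0.86 in TAC. Its groups overlapped almost fully, with a log2 fold change of -0.08 (SE 0.102, 95% interval -0.317 to 0.165, adjusted p = 0.771), and -0.02 without TAC replicate 1.

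The genes of the cytosolic fatty acid binding proteins held the largest RNA differences among the members, and these ran in opposite directions. Fabp3, the heart-type protein that is also abundant in active brown fat, read 8.33, 8.57 and 8.34 in Sham and 8.82, 8.52, 8.84 and 8.70 in TAC. Of the TAC arrays, 3 lay above all Sham arrays and TAC replicate 2 lay just under Sham replicate 3. The fold was 1.24, a log2 fold change of 0.31 (SE 0.114, 95% interval 0.0388 to 0.579), which did not pass after adjustment (adjusted p = 0.35). The other Fabp3 probe gave 0.32 (SE 0.133, adjusted p = 0.381). With Sham replicate 1, the lowest array of all, the change was 0.35 (adjusted p = 0.255), and it was 0.28 without TAC replicate 1 (adjusted p = 0.39).

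Skeletal muscle, which also expresses Fabp3, was unevenly present in the samples. The 12 muscle markers were above background on every array, and their sum was 57.3, 206 and 104 times the 75th percentile in Sham and 327, 259, 71.8 and 331 in TAC. All 12 were higher after TAC, with a median of 0.98 on the log2 scale and 0 at an unadjusted p under 0.05. Among Sham replicates 2 to 4 the array with the highest sum, replicate 3, also had the highest Fabp3. In TAC the array with the lowest sum, replicate 3, had the highest Fabp3. Sham replicate 1 is not in these sums. In the table its muscle markers lay above the mean of the other Sham arrays, such as Acta1 by 1.15 and Ckm by 0.92. Only Mylpf did not (-0.0052). Fabp3 on Sham replicate 1 was the lowest of all arrays, at -0.24 from that mean. The part of muscle RNA in the Fabp3 difference was not tested.

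Fabp4, the adipocyte protein, read 9.78, 10.06 and 9.92 in Sham and 9.59, 9.93, 9.86 and 9.90 in TAC. TAC replicates 2 to 4 fell inside the Sham range. The log2 fold change was -0.10 (SE 0.119, 95% interval -0.38 to 0.18, adjusted p = 0.739), and -0.02 without TAC replicate 1.

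Fabp5, the epidermal-type protein found in adipocytes, macrophages and endothelium, had the lowest adjusted p of the members. It read 4.91, 5.28 and 4.98 in Sham and 4.82, 4.67, 4.60 and 4.44 in TAC. Every TAC array lay below every Sham array (10.4% over all probes), with TAC replicate 1 nearest to Sham. The groups also stayed apart with Sham replicate 1. The TAC level was 0.745 of Sham, a log2 fold change of -0.42 (SE 0.132, 95% interval -0.735 to -0.114, adjusted p = 0.297). With all 8 arrays the change was -0.45 (SE 0.115, adjusted p = 0.227), and without TAC replicate 1 it was -0.49 (adjusted p = 0.231). The macrophage sum ranged from 46.5 to 50.5 in Sham and was 81.1, 47.8, 39.8 and 44.9 in TAC replicates 1 to 4, and its part in the Fabp5 difference was not tested. Probe sequences were not used here, so hybridisation of related sequences to the single Fabp5 probe was not examined.

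Within each array, the log2 deviation of Fabp3 from its Sham mean minus that of Fabp5 was 0.067, -0.0698 and 0.0029 in Sham and 0.647, 0.495, 0.882 and 0.908 in TAC. The Sham arrays were centred on 0 by construction with an SD of 0.0684 (n = 3), and TAC averaged 0.733 ± 0.197 (SD, n = 4). In the table, Sham replicate 1 stood at -0.273, on the far side from TAC. The pair was picked for its opposed changes, so these values are a description without a test.

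**Figure D2:**
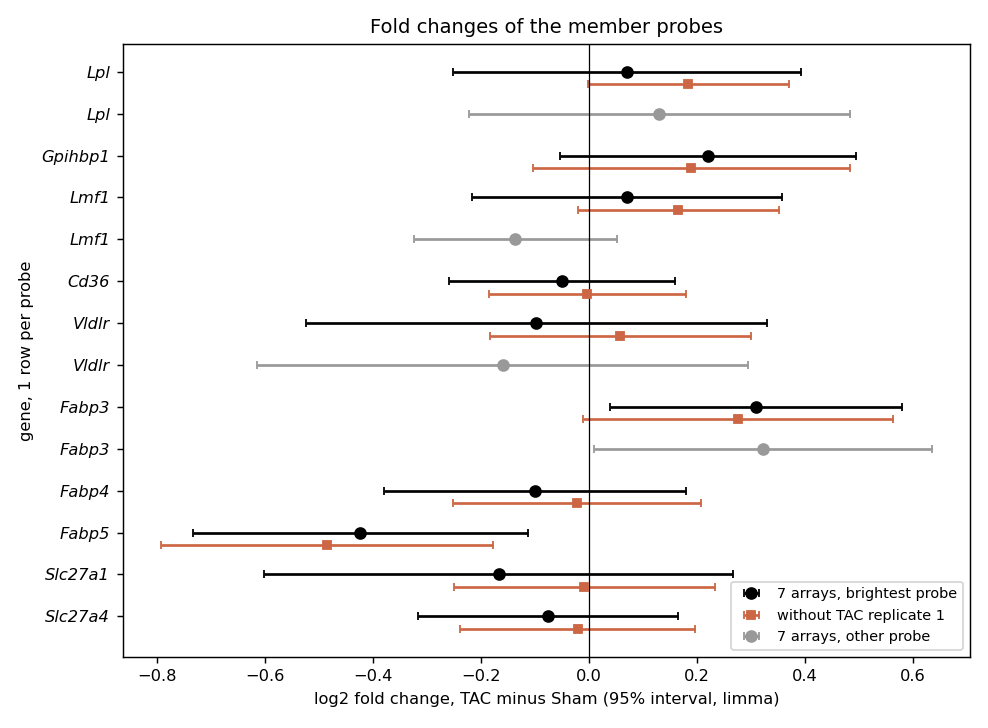
Log2 fold change of TAC over Sham (horizontal axis) with 95% intervals from limma, 1 row per probe; black circles are the brightest probes, grey circles the other probes and orange squares the brightest probes without TAC replicate 1. The interval of Fabp5 stays below 0 in both fits, while that of Fabp3 reaches 0 once TAC replicate 1 is left out.

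TAC replicate 1 shaped how the members varied among themselves. It was the lowest of the 7 scanner arrays for 7 members (Lpl, Lmf1, Cd36, Vldlr, Fabp4, Slc27a1 and Slc27a4) and the highest for 1, Gpihbp1. Over all probes tested it was lowest for 35.9% and highest for 18.2%. The median deviation of the 10 genes from their Sham means was -0.239 on TAC replicate 1, against 0.108, 0.0337 and 0.0228 on TAC replicates 2, 3 and 4 and -0.0575 to 0.0207 on the Sham arrays. Without that array the median log2 fold change of the members was 0.03 in place of -0.06, so its sign rested on 1 array.

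**Figure D3:**
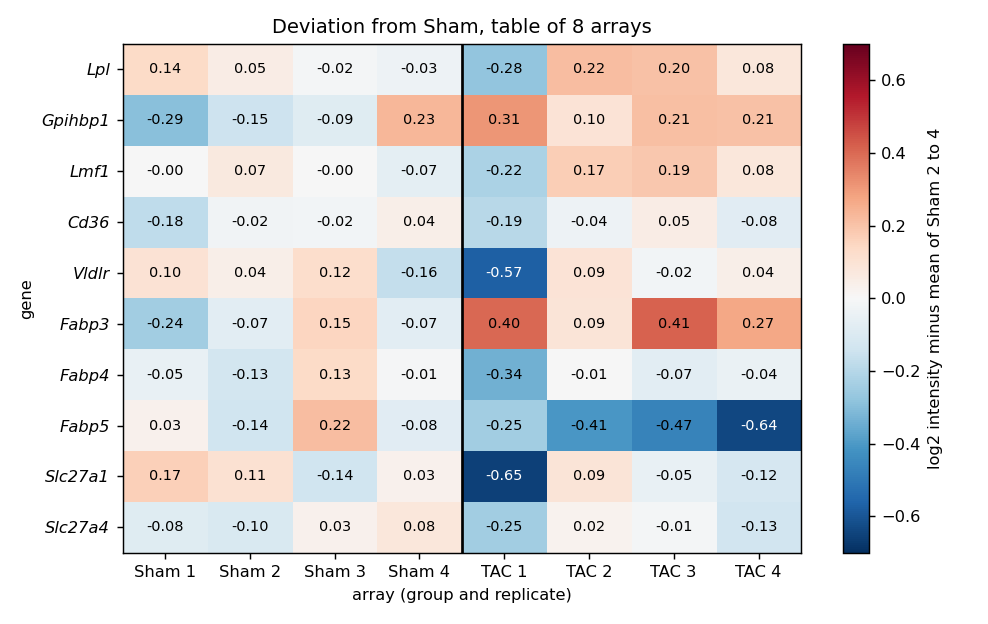
Deviation of each gene (rows) from the mean of Sham replicates 2 to 4 on the 8 arrays of the deposited table (columns), in log2 units, with blue below and red above Sham. The TAC 1 column is blue for 8 of 10 genes, the Fabp5 row is blue on all 4 TAC arrays and the Fabp3 row is red on all 4.

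The genes whose profile over the 8 arrays of the table was most like that of Lpl followed the same array. Of 14985 genes compared, Tex264 (Pearson r = 0.978), Cd320 (0.976), Kars (0.975), Pcbp2 (0.971) and 1700120K04Rik (0.967) came first. Each was lowest on TAC replicate 1, and their log2 fold changes lay between 0.01 and 0.08. The 8 points share arrays and normalisation, and the values of r are a description.

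Promoter windows of 300 bases, most of it before the annotated start, were at hand for 6 members in 9 windows (RefSeq, GRCm38.p6); Lpl, Gpihbp1, Fabp4 and Fabp5 had none in the table used. They were searched on both strands for the PPAR core motif AGGTCA, its direct repeat AGGTCANAGGTCA, the hypoxia response cores ACGTG and GCGTG, and the CCAAT box. These letters were present in 16.3%, 0.0396%, 19.6%, 32.4% and 37.4% of 32851 windows of that length, respectively. The windows below are those of Fabp3, the member with the largest positive change, of Cd36, the 1 member with the PPAR core motif, and the window of Slc27a1 that held ACGTG. Capitals mark the motifs found, as they read on the strand shown.
Fabp3, chr4:130308488-130308787, plus strand: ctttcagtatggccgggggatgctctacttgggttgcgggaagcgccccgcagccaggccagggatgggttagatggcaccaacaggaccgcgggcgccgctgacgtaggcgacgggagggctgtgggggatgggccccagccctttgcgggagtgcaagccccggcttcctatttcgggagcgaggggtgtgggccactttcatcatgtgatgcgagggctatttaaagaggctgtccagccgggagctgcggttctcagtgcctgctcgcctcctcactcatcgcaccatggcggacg
Cd36, chr5:17835847-17836146, minus strand: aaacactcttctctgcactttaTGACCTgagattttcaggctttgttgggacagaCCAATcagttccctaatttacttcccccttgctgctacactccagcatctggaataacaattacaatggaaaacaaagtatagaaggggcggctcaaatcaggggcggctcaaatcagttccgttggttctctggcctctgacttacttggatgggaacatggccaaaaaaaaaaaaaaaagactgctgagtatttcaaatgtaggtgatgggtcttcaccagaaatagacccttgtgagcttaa
Slc27a1, chr8:71570344-71570643, plus strand: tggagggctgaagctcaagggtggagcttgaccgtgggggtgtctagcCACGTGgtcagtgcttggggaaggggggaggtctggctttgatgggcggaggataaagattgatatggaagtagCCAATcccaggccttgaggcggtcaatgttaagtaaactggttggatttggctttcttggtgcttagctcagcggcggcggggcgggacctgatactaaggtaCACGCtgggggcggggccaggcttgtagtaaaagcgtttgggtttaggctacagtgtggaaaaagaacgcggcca
None of the searched letters was found in the Fabp3 window. In that of Cd36 the PPAR core motif lay on the opposite strand at bases 23 to 28, and a CCAAT box at bases 56 to 60. In that of Slc27a1, ACGTG was found on both strands in overlapping positions, 49 to 54. The stretch CACGTG reads the same on both strands, so this is a single site. The window also held a CCAAT box at bases 123 to 127 and GCGTG on the opposite strand at bases 226 to 230. Lmf1 held GCGTG at 4 positions, the second Vldlr window and another Slc27a1 window a CCAAT box each, and the Slc27a4 window none of these motifs. A match in letters does not show that a factor binds, and the arrays measured no binding.

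The genes that regulate or assist the lipase included several with larger differences. Of 16 listed regulators and partners of LPL, 14 were tested (Lipc and Lipg were not), of which 6 were higher after TAC and 8 lower. Their median was -0.08 on the log2 scale. At an unadjusted p under 0.05, 4 were higher and 2 lower (4.38% and 8.43% over all probes), and after adjustment 0 passed. For 3 genes every TAC array lay above every Sham array (5.59% over all probes), and for 2 below (10.4%). With Sham replicate 1 in the table, Angptl4 and Apoe stayed above and Lrp1 did not.

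Angptl4, a secreted inhibitor that unfolds LPL, read 7.29, 7.77 and 7.69 in Sham and 8.39, 7.88, 8.30 and 8.46 in TAC. All TAC arrays lay above all Sham arrays, and above Sham replicate 1 in the table. The fold was 1.59, a log2 fold change of 0.67 (SE 0.18, 95% interval 0.248 to 1.1, adjusted p = 0.255), and without TAC replicate 1 it was 0.63 (adjusted p = 0.296). Angptl8, another secreted protein that acts on LPL, was named after its values were seen. Its log2 fold change was -0.90 (SE 0.285, adjusted p = 0.306) and -0.63 without TAC replicate 1, with every TAC array below every Sham array, also with Sham replicate 1.

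Among the apolipoproteins, Apoc3, an inhibitor of triglyceride clearance, read -0.96, -0.75 and -0.73 in Sham and -2.21, -1.62, -1.89 and -1.66 in TAC. The groups were well separated, with a log2 fold change of -1.03 (SE 0.16, 95% interval -1.41 to -0.651, adjusted p = 0.196). Its other probe gave 0.0008 (adjusted p = 0.997), so the 2 Apoc3 probes disagreed. Apoe, a ligand of lipoprotein receptors that macrophages also make, read 8.15, 8.11 and 8.25 in Sham and 9.18, 8.62, 8.79 and 8.53 in TAC. The log2 fold change was 0.61 (SE 0.161, limma adjusted p = 0.249) and 0.48 without TAC replicate 1, the array with the highest macrophage sum. That sum was 47.8, 39.8 and 44.9 on TAC replicates 2 to 4 and 46.5 to 50.5 in Sham. Its part in the Apoe difference was not tested. Apoc2, the activator of LPL, changed by 0.11 (SE 0.199, 95% interval -0.362 to 0.578, adjusted p = 0.836), by 0.0066 without TAC replicate 1 and by -0.0064 with all 8 arrays. Lrp1 and Hspg2, a lipoprotein receptor and a heparan sulphate proteoglycan, were higher by 0.27 (adjusted p = 0.317) and 0.36 (adjusted p = 0.367), and both were named after their values were seen. With Sham replicate 1 included they were higher by 0.18 (adjusted p = 0.455) and 0.26 (adjusted p = 0.445), neither with an unadjusted p under 0.05, and the Lrp1 groups overlapped.

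Of 25 other genes of fatty acid transport, binding and activation, 19 were tested (Slc27a6, Fabp1, Fabp2, Fabp6, Fabp7 and Pmp2 were not). Of these 5 were higher and 14 lower, and their median was -0.11 on the log2 scale. At an unadjusted p under 0.05, 0 were higher and 4 lower (4.38% and 8.43% over all probes), and 0 passed after adjustment. Acsl5, which activates long-chain fatty acids to acyl-CoA, read 4.05, 4.25 and 3.84 in Sham and 2.07, 3.13, 2.65 and 2.89 in TAC. All TAC arrays lay well below Sham, at a fold of 0.389 (log2 -1.36, SE 0.249, adjusted p = 0.197), and the change was -1.16 without TAC replicate 1. Fabp12, a less studied member of the binding protein family, differed by -0.77 (SE 0.131, adjusted p = 0.196), and Dbi, the acyl-CoA binding protein, by -0.62 (SE 0.241, adjusted p = 0.36), or -0.41 without TAC replicate 1. Acsl3, the fourth gene under that threshold and named after its values were seen, changed by -0.55 (adjusted p = 0.385), and by -0.37 without TAC replicate 1, when its unadjusted p was no longer under 0.05. Acsl1, the main acyl-CoA synthetase of fat cells, changed by -0.28 (SE 0.182, 95% interval -0.707 to 0.153, adjusted p = 0.542) and by -0.12 without TAC replicate 1.

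**Figure D4:**
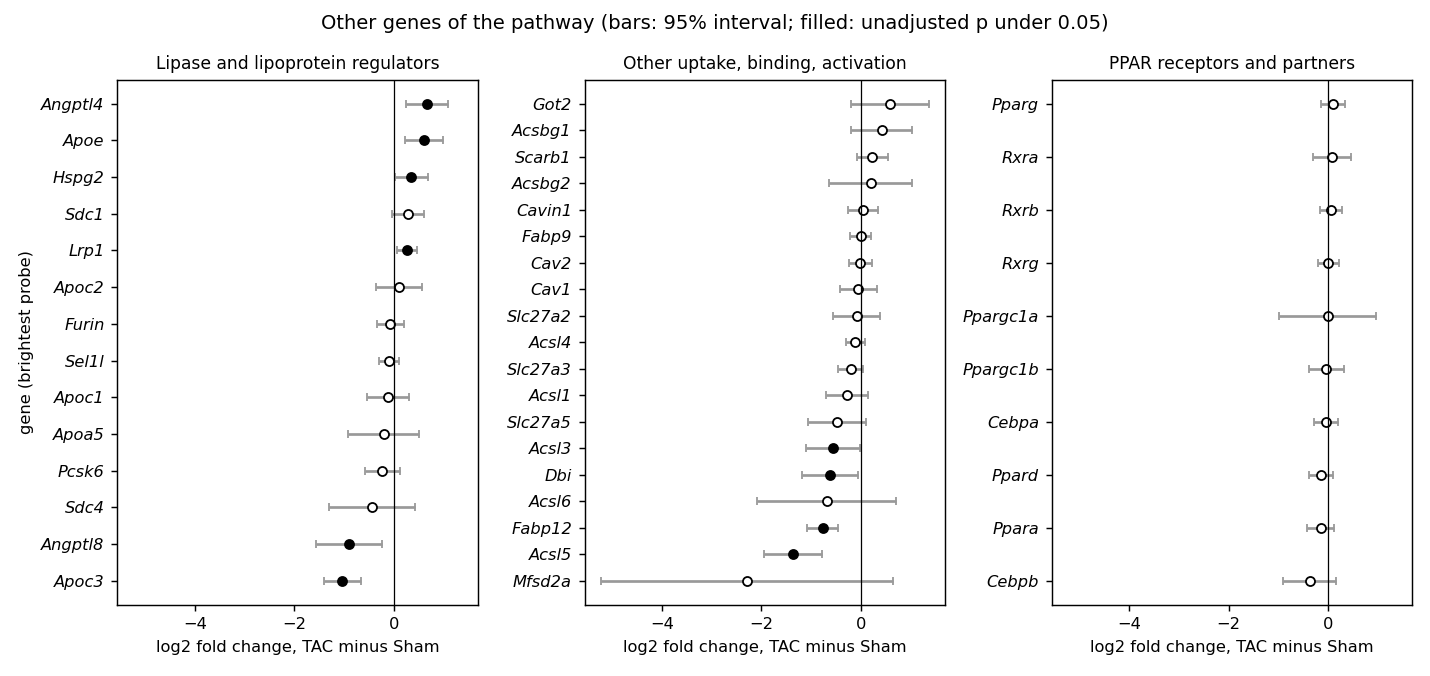
Log2 fold change of TAC over Sham (horizontal axis) with 95% intervals for the brightest probe of 14 regulators of the lipase, 19 other genes of fatty acid uptake and 10 PPAR receptors and partners, ordered by value in each panel; filled points have an unadjusted p under 0.05. Angptl4 and Apoe stand at the upper end, Apoc3, Acsl5 and Mfsd2a lie below -1, and no point of the PPAR panel is filled. Mfsd2a, named after its values were seen, is the lowest point at -2.29, with a wide interval (-5.23 to 0.654). Without TAC replicate 1 it was -1.20.

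The PPAR receptors drive many of these genes in fat. By their brightest probes, all 10 listed receptors and partners were tested, 4 higher and 6 lower with a median of -0.02 on the log2 scale, and 0 had an unadjusted p under 0.05. Pparg changed by 0.10 (SE 0.101, 95% interval -0.136 to 0.342, adjusted p = 0.685) and Ppara by -0.15 (SE 0.113, 95% interval -0.416 to 0.116, adjusted p = 0.592). Ppard changed by -0.14 (adjusted p = 0.592) and Cebpb, which acts early in fat cell differentiation, by -0.37 (adjusted p = 0.519). Without TAC replicate 1 they changed by -0.08 and -0.23. The probes of Ppara differed in sign, the others giving -0.12 and 0.13. Those of Rxrg, a partner receptor, gave 0.0085 for the brightest and -0.40 for the other, whose unadjusted p was under 0.05 (adjusted p = 0.36).

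**Figure D5:**
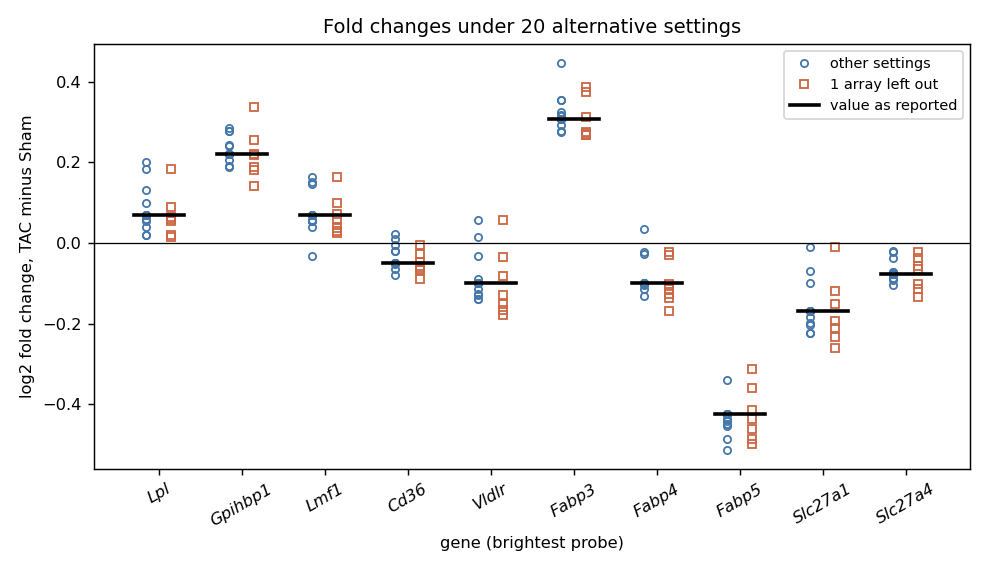
Log2 fold change of TAC over Sham (vertical axis) for the brightest probe of each member under 20 alternative settings; black bars are the values as reported, blue circles other ways of processing and orange squares fits with 1 array left out. All points of Gpihbp1 and Fabp3 lie above 0 and all of Fabp5 below, while Cd36, Vldlr, Fabp4 and Lmf1 cross it.

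Across 20 other ways of processing or leaving out an array, Fabp5 ranged from -0.51 to -0.31, Fabp3 from 0.27 to 0.45, Gpihbp1 from 0.14 to 0.34 and Lpl from 0.02 to 0.20. In each of these settings 0 of the 14 member probes passed an adjusted p of 0.05.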

How the data were processed

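The 7 scanner files hold Agilent Feature Extraction 10.7.1.1 output, and per the file headers the processed signal is an intensity with background subtracted. The deposited table gives the intensity of 8 arrays, each divided by a constant per array. This was checked on the 7 arrays with scanner values, over probes with a processed signal above 100. Of these probes, 100% lay within 1% of a constant log2 offset of 0.172 to 0.205.

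Intensities were divided by each array's 75th percentile and taken to log2. Spots of a probe were averaged, leaving out outlier spots. Probes well above background on at least 3 of 7 arrays were tested with limma 3.58.1 in R 4.3.3 and adjusted by the method of Benjamini and Hochberg over 33364 of 55681 probes. Spots above background were 54.5 to 64.3% of each array. The number of arrays limits the precision, and as the labels do not tie replicates to separate animals, p-values measure the spread between these samples, which may be technical. Symbols came from RefSeq accessions (50.3% of probes). All 10 members were named with every probe; from each list, the 3 genes with the lowest p and Angptl4, Apoc2, Acsl1, Pparg and Ppara were named. Members and lists were chosen with earlier results of these data known. The fit was tested on simulated data with independent noise and changes larger than that of any member. Detection of changes of the members' size was therefore not examined. A withheld gene was left out of the list of lipase regulators and is not reported here.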

Additional observations from a re-analysis of the deposited data

Results flagged for a closer look

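Vldlr on TAC replicate 1 lay far from the other TAC arrays by both of its probes. The brighter probe read 4.96 there against 5.52 to 5.64 on TAC replicates 2 to 4, a gap of 0.8294 of the group's whole range. The dimmer probe read 2.18 against 2.82 to 2.91, a gap of 0.8727. Of 29 groups of 4 arrays checked, 2 were set apart in this way, both of this gene, and chance sets apart about 1 in 20.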

How the results depend on the processing

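Of 200 member values under 20 alternatives, 193 kept their direction and their side of the threshold and 7 changed sign, all within 4 genes with small changes. The alternatives are not separate checks of direction. Changing the filter on dim probes, keeping outlier spots or using the t-test left every member's log2 fold change as reported, so no sign could change there. The replicate block over the table of 8 arrays likewise gave the log2 fold changes of that table without the block. Under quantile normalisation Cd36 was 0.0101 and Fabp4 0.0346. In the table without TAC replicate 1, Cd36 was 0.0225 and Vldlr 0.0145. Averaged over its probes, Lmf1 was -0.0332. Leaving out 1 array at a time, Vldlr ranged from -0.178 to 0.0576, the upper end being without TAC replicate 1. With the replicate number as a block over the 7 scanner arrays, TAC replicate 1 had no Sham partner. The log2 fold changes of that fit were therefore those without TAC replicate 1. Vldlr was again 0.0576, the same result counted once more. The numbers were not treated as pairs, since deviations of same-numbered arrays correlated by only -0.026 to 0.0017 over the scanner arrays and by 0.27, 0.021, 0.057 and 0.019 for replicates 1 to 4 in the table of 8 arrays. The block left 0 member probes past the adjusted threshold. The median of the 10 members, -0.06 as reported, ran from -0.095 to 0.027 when 1 array was left out, and was 0.0223 under quantile normalisation and 0.0185 in the table without TAC replicate 1. The causes were not tested.

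The unadjusted p of Fabp5 stayed under 0.05 except without Sham replicate 3, when the change was -0.312. That of Fabp3 exceeded 0.05 under median centring and without Sham replicate 2 or 4 or TAC replicate 1, 3 or 4. Gpihbp1 came under it in the table of 8 arrays and without Sham replicate 4. Without TAC replicate 4, 7 probes of the whole array were called higher and 2 lower, none of a member. By the methods' t-test 0 member probes passed after adjustment, and Fabp3 and Fabp5 were again the members with an unadjusted p under 0.05. The table without Sham replicate 1 was added after seeing the data. With 7 arrays, a 95% interval that holds 0 does not show that a gene was unchanged.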
